A study of Mus musculus with 8 samples.

Results

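The cyclin-dependent kinase (CDK) inhibitor genes other than p27 were examined in NIH3T3 cells sorted as G0 and as G1. They were Cdkn1a (p21), Cdkn1c (p57), the INK4 genes Cdkn2a, Cdkn2b, Cdkn2c and Cdkn2d, and Cdkn3. The members were taken by name, as every probe set whose single gene symbol in the platform annotation was among these 7 genes. This gave 8 of the 45037 probe sets on the array, 2 for Cdkn1a and 1 for each of the other 6 genes. All 8 were tested, since no filter on level was applied.

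These genes encode the brakes on the kinases that drive a cell out of G1. The INK4 proteins p16, p15, p18 and p19 bind Cdk4 and Cdk6 and keep D-type cyclins from activating them, so that the retinoblastoma protein stays unphosphorylated and E2F target genes stay off. P21 and p57 belong with p27 to the CIP/KIP family, which binds complexes of cyclins with Cdk2 and other kinases. P21 also binds PCNA and is a well-known p53 target and serum-responsive gene. Cdkn3 differs in kind, being a phosphatase that removes the activating phosphate from Cdk2 and Cdk1, and its mRNA is known as a transcript of cycling cells. The Cdkn2a locus also encodes p19Arf, and NIH3T3 lines are described as having lost this locus.

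NIH3T3 is an established mouse embryonic fibroblast line. All 8 samples carried 2 fluorescent reporters, mVenus-p27K- and mCherry-hCdt1(30/120). The cells were deprived of serum and then given 10% serum for 5 h. Those positive for both reporters were sorted as G0, and those positive for mCherry alone as G1, with 4 arrays of total RNA in each group. No drug and no second genotype was compared. Separate cultures are not stated for the replicates, and the p-values therefore reflect a spread that may be partly or wholly technical. Both groups are bulk RNA of sorted cells, in which fewer expressing cells and less RNA per cell cannot be told apart. Each value is a log2 expression value (base taken as 2) relative to that probe set's own median over the 8 arrays. Such values give differences between arrays but no absolute level, so the inhibitors cannot be ranked by abundance, and whether a gene was expressed at all cannot be read from them.

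The labels place replicate 4 of each group in another labelling batch, which thus holds 1 array of each group. The bacterial poly-A spike-in controls were instead missing on G0 replicate 3 and G1 replicate 4, where their median was −7.12 and −6.40 against −0.14 to 0.62 on the other 6 arrays. On the same pair of arrays the 18S ribosomal RNA controls had medians of −5.70 and −5.57. The 5′ probe set of the transferrin receptor control stood there at 3.80 and 4.27, against −0.73 to 0.38 elsewhere. The labels and the spike-ins thus put different G0 arrays beside G1 replicate 4. In the order of the samples G0 replicate 4 comes before G0 replicate 3, so the last array listed in each group is the one without spike-ins. Whether a title or the stated batch is at fault was not tested. A difference within a labelled batch may therefore compare arrays that were not labelled together. Each inhibitor is therefore given on all 8 arrays and on the 6 arrays with spike-in signal. None of 8 fibroblast markers differed between the groups at an adjusted p under 0.05, and neither did any of 21 markers of blood, epithelial, endothelial, muscle or fat cells. At an unadjusted p under 0.05 in limma, which 7.3% of all probe sets had, the fibroblast collagen Col3a1 (log2 difference −0.72) and the leukocyte markers Lyz2 (−0.55) and Adgre1 (−0.74) were lower in G1, and the endothelial marker Pecam1 (1.16) was higher. Centred values do not show whether any of these markers was present, so the labelled cell type was not checked by level.

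The promoter windows of the 3 genes whose G1 values lay above their G0 values on the 6 arrays with spike-in signal are shown because the 3 differ in the motifs they hold. The sequences are RefSeq's, of mouse build GRCm38.p6, 5′ to 3′ on the gene's strand, and each runs from 250 bases before a transcript start to 50 after it. Capitals mark matches to TTTGAA (the cell cycle homology region, CHR, of late cell cycle genes), to CCAAT (the box bound by NF-Y), or to a pair of p53 half-sites at most 13 bases apart. CHR and CCAAT were searched on both strands, and the p53 half-site reads alike on both. No E2F site (TTTCCCGC, TTTCGCGC, TTTGCCGC or TTTGGCGC, either strand) lay in these 4 windows.
Cdkn3, chr14:46760291-46760590, plus strand: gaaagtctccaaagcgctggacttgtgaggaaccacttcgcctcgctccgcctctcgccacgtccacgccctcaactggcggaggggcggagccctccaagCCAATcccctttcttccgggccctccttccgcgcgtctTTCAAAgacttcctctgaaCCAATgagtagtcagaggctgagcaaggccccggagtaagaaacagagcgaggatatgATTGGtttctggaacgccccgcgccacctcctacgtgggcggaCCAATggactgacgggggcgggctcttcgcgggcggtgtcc
Cdkn2d, chr9:21291160-21291459, minus strand: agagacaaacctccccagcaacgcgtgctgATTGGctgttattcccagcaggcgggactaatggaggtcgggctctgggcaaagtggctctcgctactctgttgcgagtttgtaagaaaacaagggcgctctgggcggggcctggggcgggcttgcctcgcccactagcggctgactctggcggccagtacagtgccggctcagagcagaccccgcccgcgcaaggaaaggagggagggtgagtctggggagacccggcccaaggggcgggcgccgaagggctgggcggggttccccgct
Cdkn1a, upstream start, chr17:29090729-29091028, plus strand: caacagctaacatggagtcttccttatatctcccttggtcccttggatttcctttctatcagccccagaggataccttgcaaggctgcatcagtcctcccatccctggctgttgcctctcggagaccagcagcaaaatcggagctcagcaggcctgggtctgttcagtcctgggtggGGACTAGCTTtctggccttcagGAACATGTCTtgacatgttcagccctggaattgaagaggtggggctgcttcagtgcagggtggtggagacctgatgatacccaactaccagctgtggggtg
Cdkn1a, downstream start, chr17:29093519-29093818, plus strand: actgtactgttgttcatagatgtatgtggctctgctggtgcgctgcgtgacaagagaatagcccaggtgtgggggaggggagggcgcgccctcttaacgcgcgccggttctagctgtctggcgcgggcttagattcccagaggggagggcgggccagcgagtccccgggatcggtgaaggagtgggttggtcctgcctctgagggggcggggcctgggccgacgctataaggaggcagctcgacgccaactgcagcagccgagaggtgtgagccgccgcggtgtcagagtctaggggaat

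The Cdkn3 window held 1 CHR match, on the complementary strand, and 4 CCAAT matches. Of the 32851 promoter windows of this length, 17.9% held a CHR match and 37.4% a CCAAT match, while 1.06% held 4 or more CCAAT matches and 0.195% held these together with a CHR match. The count of 4 was looked up after it had been seen in Cdkn3. The Cdkn2d window held 1 CCAAT match and no CHR match. The upstream window of Cdkn1a held 1 match to a pair of p53 half-sites as defined above, which 0.0731% of all windows hold. Whether the marked stretches are the p53 element of this gene was not tested. The downstream window of Cdkn1a held none of the marked motifs. Of the other members, Cdkn2b held 1 CHR match, the upstream window of Cdkn2a held 1 E2F match (2.26% of all windows), and the downstream windows of Cdkn2a and Cdkn2c held 1 CCAAT match each. Cdkn1c had no entry. A match describes the letters of a window and is not evidence of binding.

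None of the inhibitor probe sets differed between G1 and G0 past the threshold, an adjusted p under 0.05 in limma over all probe sets. The count was 0 of 8, against 0.4% of all probe sets called. At an unadjusted p under 0.05 it was 1 of 8, Cdkn3, against 7.3% of all probe sets. When the covariate was the batch shown by the spike-ins, not the labelled one, 0 of 8 passed (0.788% of all probe sets), and 3 of 8 had an unadjusted p under 0.05 (11.3% of all probe sets). Those 3 were Cdkn3, Cdkn2d and a Cdkn1a probe set. The median log2 difference of the 8 was 0.67, against −0.06 over all probe sets. Of the 8, 7 were positive, among them both Cdkn1a probe sets and Cdkn2c at 0.04. The share of positive differences over all probe sets is not given, so this count is not read as a result about the members. The members spread over very different widths, as the plot of values by array shows.

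**Figure D1:**
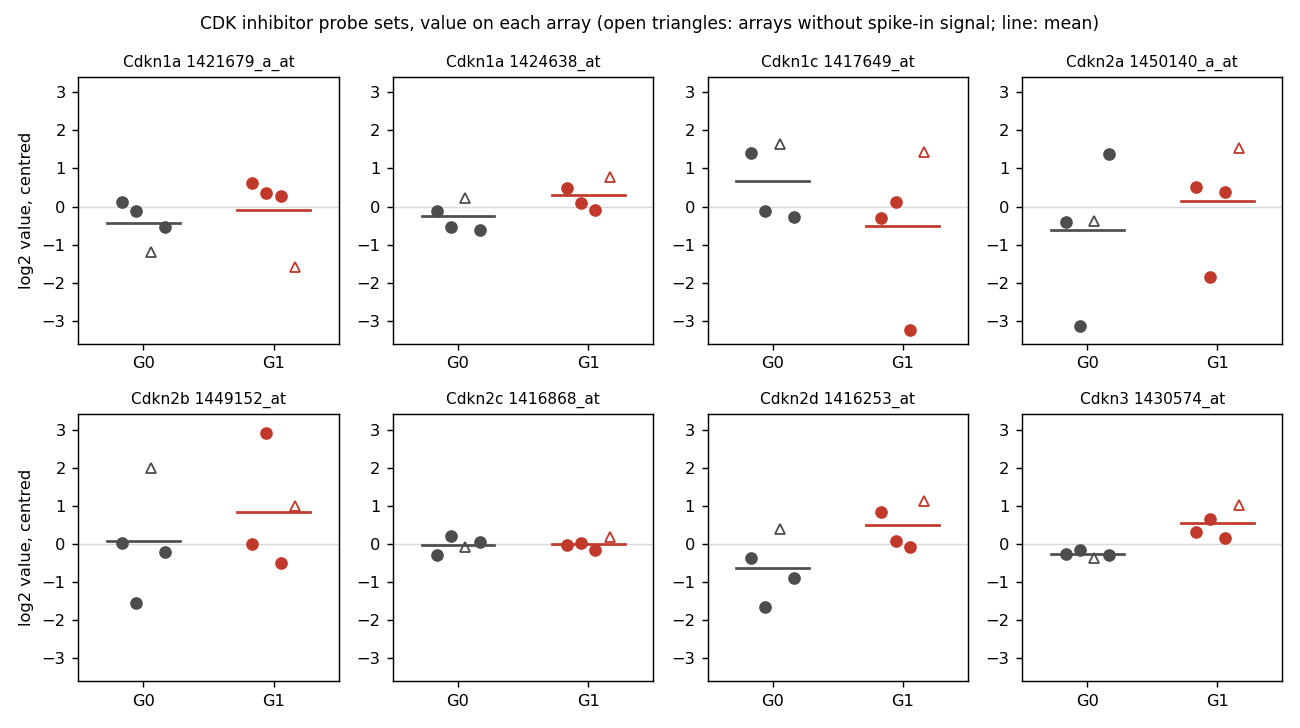
Log2 values (y axis, set to a median of 0 in each probe set) of the 8 inhibitor probe sets on the 4 G0 and 4 G1 arrays, with a line at each group mean and open triangles for the 2 arrays without spike-in signal. Cdkn3 is the probe set whose G1 values all lie above its G0 values, Cdkn2c lies within 0.30 of 0 on every array, and Cdkn1c, Cdkn2a and Cdkn2b scatter over 4 log2 units or more.

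Cdkn3, the phosphatase gene, was the member that separated the groups on all 8 arrays. Its 4 G0 values were −0.27, −0.16, −0.38 and −0.30 for replicates 1 to 4, and its 4 G1 values were 0.32, 0.64, 0.16 and 1.03. Every G1 array was higher than every G0 array. Groups that do not overlap, with G1 higher, occurred in 3.16% of all probe sets, and in 1 of the 8 here. The log2 difference, G1 minus G0, was 0.82 (SE 0.23, 95% confidence interval 0.29 to 1.34, 1.76-fold higher). It did not pass in limma (adjusted p = 0.391 with the labelled batch and 0.189 when the spike-ins set the batch). Labelled batches 1 and 2 taken alone gave 0.64 and 1.33, and the arrays with and without spike-in signal gave 0.62 and 1.405. The G1 array highest in Cdkn3 was replicate 4, which lacks the spike-ins.

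Cdkn2d, which encodes the INK4 protein p19, had the largest positive difference of the 8 probe sets. Its G0 values were −0.37, −1.65, 0.39 and −0.89 for replicates 1 to 4, and its G1 values 0.83, 0.07, −0.07 and 1.13. The groups overlapped on 8 arrays through G0 replicate 3, which lay above G1 replicates 2 and 3. On the 6 arrays with spike-in signal every G1 value was above every G0 value. The log2 difference was 1.12 on 8 arrays (SE 0.50, 95% confidence interval −0.05 to 2.29, adjusted p = 0.703) and 1.25 on 6 (0.11 to 2.39, 2.38-fold, adjusted p = 0.576). When the spike-ins set the batch, the 8-array interval was 0.30 to 1.95 (adjusted p = 0.301). Within the labelled batches the difference was 0.82 and 2.02, and it was 0.75 between the 2 arrays without spike-ins.

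Cdkn2c, which encodes the INK4 protein p18, had the difference nearest to 0 and the narrowest spread of the members. Its G0 values were −0.29, 0.21, −0.09 and 0.04, and its G1 values −0.03, 0.03, −0.16 and 0.19. The ranges of the groups overlapped fully, with the G1 values inside the range of G0. The log2 difference was 0.04 (95% confidence interval −0.44 to 0.52), and −0.039 on the 6 arrays with spike-in signal. The interval leaves out a change of 2-fold in either direction. Its SD about the group means, 0.18, was at the 7.32 percentile of all probe sets, whose median was 0.70.

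Cdkn2a and Cdkn2b, the INK4 genes of the shared locus, scattered within each group by more than the difference between them. Cdkn2a read −0.40, −3.13, −0.37 and 1.38 in G0 and 0.52, −1.86, 0.37 and 1.54 in G1. Replicate 2 was lowest in both groups. The log2 difference was 0.77 (95% confidence interval −1.13 to 2.68, adjusted p = 0.922) on 8 arrays and 0.39 (−2.77 to 3.56) on the 6 with spike-in signal, and the SD about the group means, 1.66, was at the 91.4 percentile. Cdkn2b read 0.01, −1.54, 2.01 and −0.22 in G0 and −0.01, 2.92, −0.51 and 0.99 in G1. Its highest value was on G1 replicate 2 and its lowest on G0 replicate 2. The log2 difference was 0.78 (95% confidence interval −1.57 to 3.13, adjusted p = 0.946) on 8 arrays and 1.38 (−0.995 to 3.76) on the 6, with an SD at the 85.2 percentile. Both 8-array intervals hold a 2-fold change in either direction. Without G0 replicate 2 the Cdkn2a difference was 0.092, and without G1 replicate 2 that of Cdkn2b was 0.059. The probe set of Cdkn2a is not assigned to p16 or p19Arf in the annotation used.

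Cdkn1a, which encodes p21, was read by 2 probe sets that ran together on 6 arrays and apart on the other pair. Probe set 1424638_at read −0.11, −0.53, 0.23 and −0.62 in G0 and 0.48, 0.10, −0.10 and 0.77 in G1. Probe set 1421679_a_at read 0.11, −0.11, −1.18 and −0.54 in G0 and 0.63, 0.35, 0.28 and −1.58 in G1. On G0 replicate 3 and G1 replicate 4, the arrays without spike-in signal, 1421679_a_at gave its lowest values of either group, while 1424638_at gave its highest of either group. Over the 8 arrays their Pearson correlation was −0.29 (Spearman −0.02), and over the 6 arrays with spike-ins it was 0.95 (Spearman 1).

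On the 6 arrays with spike-in signal both Cdkn1a probe sets were higher in every G1 array than in every G0 array. The log2 differences there were 0.60 (95% confidence interval 0.03 to 1.16, 1.51-fold, adjusted p = 0.589) for 1421679_a_at and 0.58 (−0.07 to 1.24, 1.496-fold, adjusted p = 0.651) for 1424638_at. On all 8 arrays they were 0.35 (−0.75 to 1.45, adjusted p = 0.95) and 0.57 (−0.14 to 1.28, adjusted p = 0.771). Within the labelled batches they were 0.81 and −1.04 for the first probe set, and 0.30 and 1.39 for the second. Between the 2 arrays without spike-ins they were −0.40 and 0.55. The part of labelling in this disagreement was not tested. When the spike-ins set the batch, the interval of 1424638_at excluded 0 (0.11 to 1.03), with an adjusted p of 0.345.

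**Figure D2:**
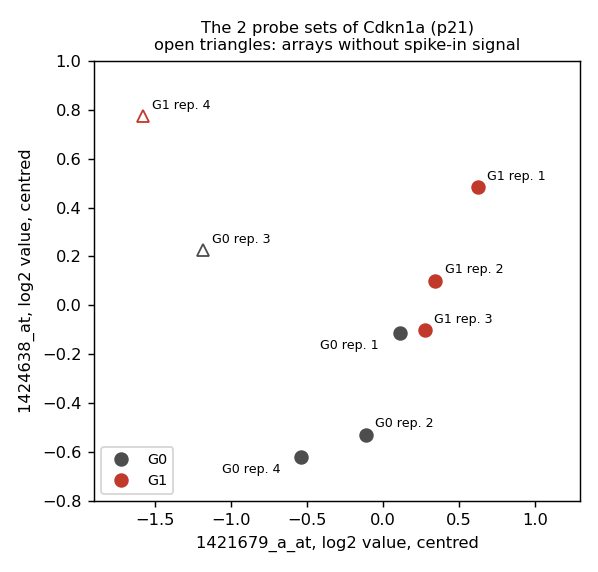
Log2 values of Cdkn1a on each of the 8 arrays, probe set 1421679_a_at on the x axis against 1424638_at on the y axis, black for G0 and red for G1. The 6 arrays with spike-in signal (filled circles) lie along a rising line with G1 above G0, and the 2 arrays without it (open triangles) lie far to the left.

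Cdkn1c, which encodes p57 and is expressed from the maternal allele, was the member with a negative difference. It read 1.42, −0.12, 1.65 and −0.29 in G0 and −0.30, 0.12, −3.24 and 1.42 in G1. G1 replicate 3 was far below the other arrays, and G1 replicate 4 was as high as G0 replicate 1. The groups overlapped. The log2 difference was −1.17 (95% confidence interval −3.49 to 1.16, adjusted p = 0.890) on 8 arrays and −1.48 (−3.97 to 1.00) on the 6 with spike-in signal. Labelled batches 1 and 2 gave −2.13 and 1.71, and the difference was −0.22 between the 2 arrays without spike-ins. The direction thus differed between the labelled batches but not between the arrays with and without spike-ins. Without G1 replicate 3 the difference was −0.26, and the SD about the group means, 1.56, was at the 88.1 percentile.

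On the 6 arrays with spike-in signal 4 of the 8 probe sets, standing for 3 genes, had every G1 value above every G0 value, against 6.69% of all probe sets. They were Cdkn3, Cdkn2d and both probe sets of Cdkn1a. For comparison, p27 itself, the inhibitor used for the sort, had negative differences. Its probe set 1434045_at read 0.89, −0.05, 2.28 and 0.05 in G0 and −0.15, −0.52, −0.49 and 1.37 in G1. On the 6 arrays every G1 value of 1434045_at was below every G0 value, while the groups of the other probe set, 1419497_at, overlapped. Groups that do not overlap, in either direction, occurred there in 15.3% of all probe sets. The Cdkn1b log2 differences on 8 arrays were −0.74 for 1434045_at (95% confidence interval −2.34 to 0.86, adjusted p = 0.901) and −0.56 for 1419497_at (−1.98 to 0.86, adjusted p = 0.926). On the 6 arrays they were −0.68 and −0.71. Cells were sorted on a p27 reporter and a probe set could read the transgene, so these values are no independent finding. Whether Cdkn1b differs from the other inhibitors was not tested.

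**Figure D3:**
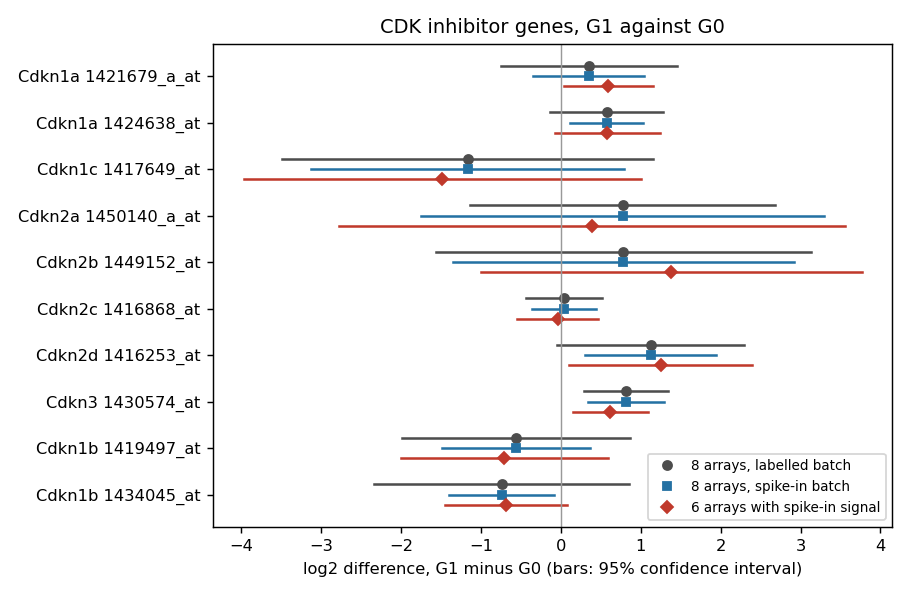
Log2 difference, G1 minus G0 (x axis), with 95% confidence intervals for each inhibitor probe set and for the 2 probe sets of Cdkn1b, from 8 arrays with the labelled batch (grey circles), 8 arrays with the spike-in batch (blue squares) and 6 arrays (red diamonds). The Cdkn3 intervals lie above 0 in all 3 fits, and those of Cdkn1c, Cdkn2a and Cdkn2b span more than 3 log2 units.

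In order of the 8-array difference the probe sets ran from Cdkn2d (1.12) through Cdkn3 (0.82), Cdkn2b (0.78), Cdkn2a (0.77), Cdkn1a by 1424638_at (0.57), Cdkn1a by 1421679_a_at (0.35) and Cdkn2c (0.04) to Cdkn1c (−1.17). All 8 intervals share the range from 0.29 to 0.52. Differences between probe sets were not tested, so the order is one of estimates only.

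The genes with the most similar pattern over the 8 arrays were taken for the representative probe set of each member. These correlations describe 8 arrays that share the sort and the labelling, and in 18 genes the Pearson correlation with Cdkn1a (1424638_at) was over 0.95. The nearest was Ccnd3, which encodes cyclin D3, with a Pearson correlation of 0.99 and the same rank order (Spearman 1). The other Cdkn1a probe set, whose correlation with 1424638_at was −0.29 over the 8 arrays, was not set against other genes. For each member the nearest genes are the highest among 18193, and how high such a match runs by chance was not tested. The log2 difference of Ccnd3 was 0.56 (SE 0.28, adjusted p = 0.762), beside 0.57 for Cdkn1a. Uck1 and Angptl8 followed, at 0.99 and 0.98. For Cdkn2d they were Rnf168, Rpp30 and Hikeshi (0.98, 0.98 and 0.97), and for Cdkn3 they were Ccdc63, Fa2h and Fam83d (0.97, 0.96 and 0.96). For Cdkn1c they were Gm15510, Zbtb7b and Ufsp2 (0.98, 0.97 and 0.97), and for Cdkn2a Dpp7, Igfbp5 and Ube2ql1 (0.97, 0.96 and 0.95). Cdkn2b (Ccdc151, Frem1 and Olfr1508, at 0.94, 0.93 and 0.93) and Cdkn2c (Clec1b, 1700097N02Rik and Six3, at 0.93, 0.92 and 0.92) had no gene above 0.95.

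The kinases, cyclins and PCNA that the inhibitors bind rose in part. Of 12 genes listed 11 were measured. G1 was higher in 2 of them and lower in 0, and the other 9 stayed short of the threshold, against 0.522% of all genes called. When the spike-ins set the batch, 4 were higher (1.01% of all genes). Cdk1, the mitotic kinase that Cdkn3 dephosphorylates, was 4.30-fold higher (log2 difference 2.11, SE 0.19, limma, adjusted p = 0.011). Ccna2, cyclin A2, was 7.77-fold higher (2.96, adjusted p = 0.0089). Ccne1, the cyclin of p21- and p27-sensitive Cdk2 complexes, differed by 1.505 (adjusted p = 0.113, and 0.0060 in the spike-in fit). The INK4 targets Cdk4 and Cdk6 differed by 0.32 (95% confidence interval −0.24 to 0.87) and 0.04 (−0.94 to 1.01). Pcna, the replication clamp that p21 binds, differed by 0.71 (adjusted p = 0.415). The list median was 0.56, against −0.06 over all genes. The count of 2 was 0 without any single array among G0 replicates 2 and 4 and G1 replicates 1 to 4. Without either replicate 4, the batch covariate absorbs the other one, so those fits compare the arrays of labelled batch 1 alone.

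Downstream of the inhibitors, against 0.522% of all genes called, the pocket proteins and E2F factors showed 2 of 13 genes higher and 0 lower. These were the repressors E2f8 (6.72-fold, limma, adjusted p = 0.0100) and E2f7 (4.58-fold, adjusted p = 0.030). The activator E2f2 differed by 2.07 (adjusted p = 0.430), and Rb1, the retinoblastoma gene, by 0.00 (95% confidence interval −0.63 to 0.64). The list median was 0.53. The proliferation markers, set here as a scale for the inhibitors, had a median log2 difference of 2.497. Against the same 0.522% of all genes, 8 of the 16 markers were higher. They included Mki67 (14.2-fold), Aurkb (11.3-fold), Birc5 (11.1-fold), Bub1 (8.29-fold), Mybl2 (7.17-fold), Plk1 (6.95-fold), Tk1 (6.05-fold) and Aurka (3.94-fold), with adjusted p from 0.0089 (Mki67) to 0.033 (Tk1) in limma. None of the inhibitor differences reached that median, Cdkn2d being nearest at 1.12. The 8-array intervals of Cdkn2a and Cdkn2b, however, ran up to 2.68 and 3.13, above it. The counts of both lists likewise fell to 0 without any one of those 6 arrays. In all the fits that left out a single array, 5 to 6 of the 11 kinases and cyclins, 4 to 7 of the 13 pocket proteins and E2F factors, and 13 to 14 of the 16 markers had an unadjusted p under 0.05. For those fits the share of all probe sets with such a p is not given. Without G0 replicate 1 the counts of calls in these 3 lists were 1, 1 and 5, and without G0 replicate 3 they were 2, 1 and 9.

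Regulators upstream of the inhibitors did not pass as single genes. Of 22 genes listed as Polycomb and other regulators of INK4 genes 21 were measured and 0 passed in limma, against 0.522% of all genes called. At an unadjusted p under 0.05, which 7.3% of all probe sets had, 2 were higher and 0 lower. Those 2 were Ezh2, the Polycomb methyltransferase (1.05, SE 0.25, adjusted p = 0.276), and Phc1 (0.89, SE 0.27, adjusted p = 0.455). Kdm2b, a histone demethylase that represses the Cdkn2b locus, differed by 0.41 (adjusted p = 0.802). The list median was 0.07. Of 24 genes listed for p53 and other regulators of Cdkn1a 22 were measured and 0 passed, and the median was −0.16. Trp53, the p53 gene itself, was not among the 22. At an unadjusted p under 0.05, beside the same 7.3% of all probe sets, 1 was higher and 0 lower. That gene was Atm, the damage kinase (0.86, SE 0.35, adjusted p = 0.667). The unadjusted counts are not read as a result about either list. Chek2, its target kinase, and Trp73, the p53 relative, differed by 0.93 (adjusted p = 0.711) and 1.46 (adjusted p = 0.716). Among the list's known p53 targets, Mdm2, Btg2, Ccng1, Gadd45a, Sesn1, Sesn2, Phlda3 and Zmat3 had differences between −1.002 (Mdm2) and 0.015 (Sesn1). Each interval included 0, and that of Mdm2 was wide (SE 0.90, −3.11 to 1.10). These genes were picked after their values were seen and are not all the p53-linked genes of the list. Others included Cop1 (0.031), Rchy1 (−0.25) and Trp73 (1.46, given above). Whether Cdkn1a, with its positive differences, differs from any of these genes was not tested.

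**Figure D4:**
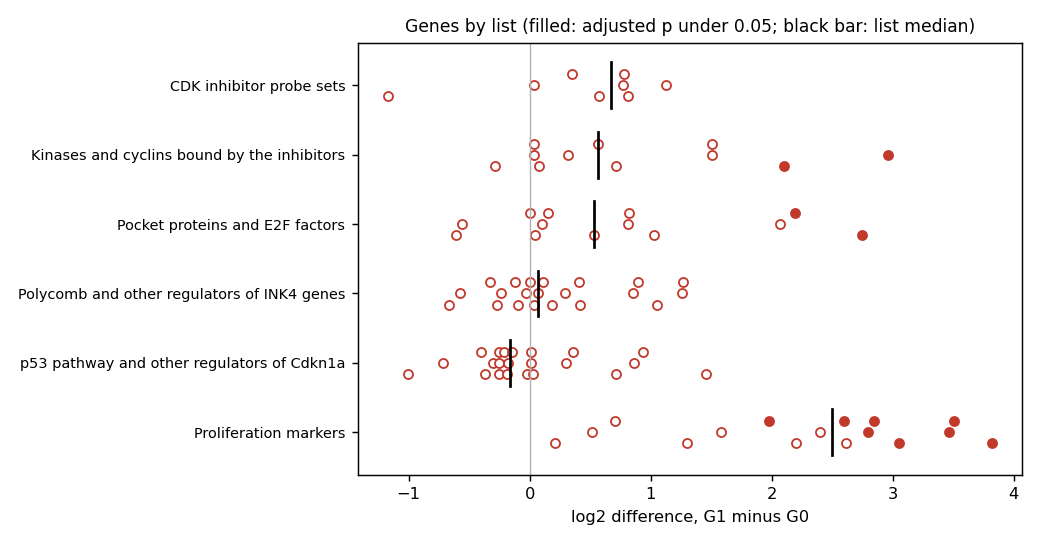
Log2 difference, G1 minus G0 (x axis), of each inhibitor probe set and of each measured gene in the 5 lists, filled where the adjusted p was under 0.05, with a black bar at each median. The inhibitor medians and those of the kinase and E2F lists lie between 0.53 and 0.67, and that of the proliferation markers at 2.497.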

How the data were processed

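RNA of 8 samples was measured on Affymetrix mouse arrays. The deposited values are log2 expression values; the submitters' processing notes name MAS5. As tested on the values, every probe set has a median of 0 over the 8 arrays (largest absolute median 5e-07). The log base and the centring step are not given in the sources used here. After leaving out 64 of 45101 probe sets as controls, 45037 were tested, of which 34945 had 1 gene symbol, 932 several and 9160 none. They stood for 18193 genes, with 34741 symbols updated through the Entrez identifier from the gene table of GRCm38.p6. A gene's representative probe set had the suffix _at, else _a_at, _s_at or _x_at, and then the lowest number.

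Differences were fitted with limma 3.58.1 in R 4.3.3 (lmFit, eBayes with trend, two-sided) on all probe sets, with the labelled batch as covariate (5 residual and 2.34 prior degrees of freedom). P-values were adjusted by Benjamini and Hochberg over 45037 probe sets, with a threshold of 0.05. The fit was tested on simulated data. The members, lists and alternatives were chosen with earlier results of these data known. Named were all member probe sets, the 3 list genes with the largest moderated t, up to 8 list genes past the threshold, and the 3 genes most alike; list genes named beyond these were chosen after their values were seen. List genes without a probe set of a single symbol were not analysed here. No level filter was possible on centred values. The number of arrays limits the precision.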

Additional observations from a re-analysis of the deposited data

Results flagged for a closer look

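The value of Cdkn1a probe set 1421679_a_at on G1 replicate 4, −1.58, lay far from the other 3 G1 arrays. Its gap to the nearest of them was 0.843 of the range of the group, above the 95% critical value of Dixon's test for 4 arrays. It was the only such value among the 20 groups of 4 arrays scanned (8 inhibitor and 2 Cdkn1b probe sets), where chance flags about 1 in 20. The array lacks spike-in signal, and the other Cdkn1a probe set read its highest value there.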

How the results depend on the processing

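Of the 8 inhibitor probe sets 0 passed in limma under each of 16 alternatives, with 1 to 3 at an unadjusted p under 0.05. The spike-in fit had 3, where 11.3% of all probe sets had such a p. For the other alternatives that share is not given, so their unadjusted counts, also those of the lists, cannot be set against it. The differences of Cdkn3, Cdkn2d, Cdkn1a by 1424638_at, Cdkn1c, Cdkn2a and Cdkn2b kept their sign in all 16. Not all 16 could change a sign. The fits with no batch, the spike-in batch, the replicate block and no trend return the same difference as the main fit. Leaving out replicate 4 of either group leaves its labelled batch with 1 array, so that difference is the one of labelled batch 1 alone. With single arrays left out, Cdkn1c ran from −2.13 (without replicate 4 of either group) to −0.26 (without G1 replicate 3), Cdkn2a from 0.092 (without G0 replicate 2) to 1.28 (without G1 replicate 2), Cdkn2b from 0.059 (without G1 replicate 2) to 1.46 (without G0 replicate 3), and Cdkn1a by 1424638_at from 0.30 (without replicate 4 of either group) to 0.75 (without G0 replicate 3). That of Cdkn2c was −0.039 on the 6 arrays with spike-ins, and −0.038 (without G0 replicate 1) to 0.14 with single arrays left out. That of Cdkn1a by 1421679_a_at ran from −0.012 (without G0 replicate 3) to 0.81 (without replicate 4 of either group). The count of inhibitor probe sets whose groups do not overlap was 4 on the 6 arrays (15.3% of all probe sets, either direction) and 2 in labelled batch 1 (15.4%). With single arrays left out it was 1 to 3 (8.47% to 10.7%), with 3 without G0 replicate 3 (10.1%) and 2 without G1 replicate 4 (10.7%). In the lists, the kinases and cyclins had 4 calls with the spike-in batch, the E2F list 1 on the 6 arrays and 1 when a gene's probe sets were averaged, and the proliferation markers 4 on the 6 arrays. In labelled batch 1 alone and with the replicate block these 3 lists had 0 calls, with 5, 6 and 13 and then 5, 5 and 13 genes at an unadjusted p under 0.05. With single arrays left out they had 0 to 2, 0 to 1 and 0 to 9 calls. The cause was not tested. The block changed no other call, and same-numbered samples did not deviate together throughout (correlations 0.069, 0.11, −0.14 and −0.14). G0 replicate 3 and G1 replicate 4, the arrays without spike-ins, deviated together (correlation 0.31), but no label pairs them. Array centring, array weights, no batch and no trend moved none of these counts of calls by over 1.5 times, but the inhibitor count at an unadjusted p under 0.05 was 2 with each of the first 3 and 1 with no trend. Absolute signal is unknown after centring, so dim probe sets cannot be told from bright ones.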
